A study of Rattus norvegicus with 144 samples.

Results

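Tdo2, Oat, Aass, Aadat and Abat are 5 liver enzymes that start or carry amino acid breakdown. They were taken by gene symbol from the platform annotation, which gave exactly 1 array probe to each, out of 18978 gene rows measured (named genes, and single probes left unnamed). Their RNA was followed in the left liver lobe of 72 male rats of the inbred strain F344/N, aged 10 to 12 weeks, after acetaminophen, a pain reliever that is toxic to the liver at high doses. The drug was given by gavage in 0.5% ethyl cellulose, and vehicle rats received the ethyl cellulose alone. The 12 groups of 6 rats combined vehicle, 150, 1500 or 2000 mg/kg with livers taken at 3, 6 or 24 h. RNA of a rat was put on 2 arrays of opposite dye orientation, each time beside pooled RNA of vehicle rats of the same time. Each rat counts once, and p-values measure the spread between rats.

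Each level below is the log2 ratio of a rat over that pool, and each difference is a dosed group minus the vehicle group of the same time. A ratio within a probe says nothing of how abundant 1 gene is beside another, and it cannot show whether liver markers are present, since the pool is liver too. In bulk liver RNA, fewer cells of a type and less RNA per cell cannot be told apart. The log base of the deposited values is not stated and log10 was assumed. The direction of the ratio is likely and not certain: it rests on drug-responsive genes such as the quinone reductase Nqo1, which was 2.16 higher on the log2 scale at 24 h and 2000 mg/kg. "Rose" and "fell" are used of differences with an adjusted p under 0.05 from limma over all gene rows.

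The liver is the main site of amino acid breakdown. Tryptophan enters the kynurenine pathway through tryptophan dioxygenase (Tdo2), the rate-limiting enzyme in liver and a classical target of glucocorticoids. Lysine is taken into the saccharopine pathway by the bifunctional enzyme Aass. Ornithine aminotransferase (Oat), aminoadipate aminotransferase (Aadat) and the GABA transaminase Abat are mitochondrial enzymes that move amino groups with vitamin B6 as cofactor. Oat links ornithine to glutamate and proline and is concentrated in hepatocytes around the central vein. Aadat acts downstream of Aass on aminoadipate and also converts kynurenine to kynurenic acid. Abat breaks down the transmitter GABA and beta-alanine.

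Promoter windows from 250 bases before to 50 after the gene start were available for 4 of the 5 genes in the RefSeq table of assembly GRCr8. They are shown in pairs, 5′ to 3′: Tdo2 with Aass, which both rose at 3 and 6 h after 2000 mg/kg, and Oat with Aadat, which both fell at 24 h. Whether the time courses within a pair differ was not tested. Capitals mark CCAAT or its reverse complement ATTGG, the letters of the CCAAT box. The Aadat window lies at a start inside the annotated span of the gene.
Tdo2 chr2:169585537-169585836 minus strand: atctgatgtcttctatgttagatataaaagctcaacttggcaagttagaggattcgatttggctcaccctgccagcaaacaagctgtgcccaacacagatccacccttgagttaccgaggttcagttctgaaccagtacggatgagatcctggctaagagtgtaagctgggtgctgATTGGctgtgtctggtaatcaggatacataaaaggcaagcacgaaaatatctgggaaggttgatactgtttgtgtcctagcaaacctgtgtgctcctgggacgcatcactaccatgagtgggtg
Aass chr4:52628762-52629061 minus strand: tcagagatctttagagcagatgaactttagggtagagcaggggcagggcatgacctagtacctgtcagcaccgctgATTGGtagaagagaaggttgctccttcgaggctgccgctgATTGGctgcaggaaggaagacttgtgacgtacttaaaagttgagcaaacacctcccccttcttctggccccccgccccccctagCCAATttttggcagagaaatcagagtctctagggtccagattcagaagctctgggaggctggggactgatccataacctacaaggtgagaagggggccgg
Oat chr1:196797705-196798004 minus strand: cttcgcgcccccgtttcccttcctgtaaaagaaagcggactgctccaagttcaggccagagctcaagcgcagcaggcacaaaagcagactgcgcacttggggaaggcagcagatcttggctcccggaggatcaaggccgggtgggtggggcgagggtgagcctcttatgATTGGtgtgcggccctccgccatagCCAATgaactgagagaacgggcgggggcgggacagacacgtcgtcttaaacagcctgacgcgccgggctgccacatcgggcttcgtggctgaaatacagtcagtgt
Aadat chr16:34555131-34555430 minus strand: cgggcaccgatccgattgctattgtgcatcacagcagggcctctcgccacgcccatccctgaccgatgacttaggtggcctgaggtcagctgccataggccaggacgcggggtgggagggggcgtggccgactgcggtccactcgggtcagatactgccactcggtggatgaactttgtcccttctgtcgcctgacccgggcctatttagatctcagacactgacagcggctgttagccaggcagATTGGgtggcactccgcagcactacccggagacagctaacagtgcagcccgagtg
The Tdo2 and Aadat windows hold 1 match each, Oat 2 and Aass 3, and 37.5% of all 33469 windows of this length hold at least 1; these letters were chosen after the windows were seen. The Tdo2 window has 47% G or C and the Aadat window 62.3%. None of 5 other motifs, searched on both strands, matches in any of the 4 windows. AGAACA, letters of the glucocorticoid receptor element, is found in 20.7% of all windows. TGACNNNGC of the antioxidant response element is found in 12.1%, TGATGCAA (bound by ATF4 with C/EBP factors) in 0.795%, CAAAGTCCA of HNF4 in 0.391% and TTGCGCAA of C/EBP factors in 0.17%. No 2 of the motifs overlap in these windows, and no match says only that the letters are not in this window.

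The 5 enzymes passed the test at different times. Tdo2 rose at 3 and 6 h after 1500 and 2000 mg/kg and did not differ detectably from vehicle at 24 h. Aass rose after 2000 mg/kg at 3 and 6 h. Oat, Aadat and Abat, the 3 transaminases, fell at 24 h after both high doses. None of the 5 passed the test at 150 mg/kg at any time, where 0 of 18978 rows did (708, 589 and 530 rows had an unadjusted limma p under 0.05 at 3, 6 and 24 h). At 1500 mg/kg 1 of the 5 rose at 3 h and 1 at 6 h, against a background of 3.39% and 3.65% of rows that rose. At 2000 mg/kg 2 rose at each of these times, against 4.92% and 5.31%. At 24 h 3 of 5 fell at each high dose, against 11.4% of rows at 1500 and 12.5% at 2000 mg/kg. These genes were picked with earlier results of the same arrays known, so the counts describe them and are no independent evidence.

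**Figure D1:**
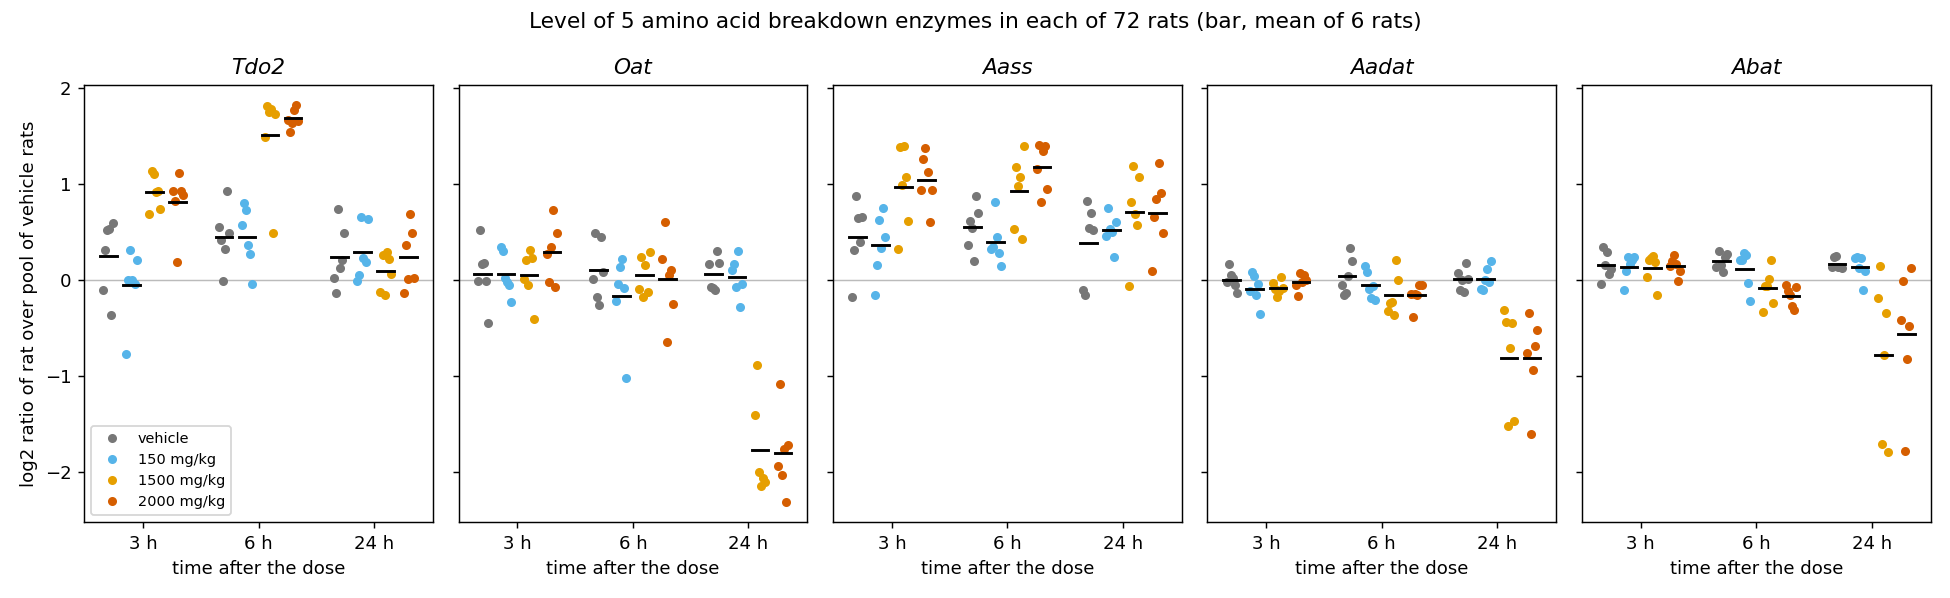
Log2 ratio of each rat over the pool of vehicle rats (y axis) for the 5 enzymes by time (x axis) and dose (colour); points are rats, 6 a group, and black bars are group means. At 6 h Tdo2 stands above every vehicle rat in all high-dose rats but 1 of 1500 mg/kg, and Oat falls below every vehicle rat at 24 h after both high doses.

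Tdo2 levels in vehicle rats at 3 h ran from -0.37 to 0.59 with a median of 0.41. After 1500 mg/kg they ran from 0.68 to 1.13 (median 0.92), above every vehicle rat, as in 2.52% of all rows. After 2000 mg/kg they ran from 0.18 to 1.11 (median 0.90), with 5 of 6 rats above the highest vehicle rat and rat 7365 at 0.18. The difference from vehicle was 0.67 ± 0.18 (SE, n = 6 and 6, adjusted p = 0.0151), a 1.59-fold rise, at 1500 mg/kg. At 2000 mg/kg it was 0.56 ± 0.18 (adjusted p = 0.0393). These 3 h calls were weak. The call at 2000 mg/kg ended when any 1 of 8 rats was left out (differences of 0.44 to 0.57), and the call at 1500 mg/kg without rat 1009 (0.60) or rat 5557 (0.55), both vehicle rats with low Tdo2. Among rats whose arrays lacked a set of blank probes shared by 49 arrays, the differences were 0.77 (adjusted p = 0.0766) and 0.45 (adjusted p = 0.423).

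The rise of Tdo2 was clearest at 6 h. Vehicle rats lay between -0.02 and 0.92 (median 0.44), and rats of 2000 mg/kg between 1.54 and 1.82 (median 1.65). These groups were separate, as were 4.04% of rows in that direction, and the 6 rats of 2000 mg/kg had an SD of 0.10 against 0.30 in vehicle rats. At 1500 mg/kg, 5 rats lay between 1.48 and 1.81 and rat 7334 at 0.49, within the vehicle range. The difference was 1.06 ± 0.18 (adjusted p = 3.51e-05) at 1500 and 1.24 ± 0.18 (adjusted p = 9.49e-07) at 2000 mg/kg, folds of 2.09 and 2.36. Both calls held in each of the 12 rats left out in turn and in every other alternative that could be fitted (12 at 1500 and 13 at 2000 mg/kg). Tdo2 stood at rank 110 and 91 of 18978 rows by size of the rise.

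At 24 h Tdo2 did not differ detectably from vehicle. Vehicle rats ran from -0.14 to 0.74 and rats of 2000 mg/kg from -0.14 to 0.68, with a difference of 0.00 (95% interval -0.37 to 0.36). At 1500 mg/kg the difference was -0.15 (-0.51 to 0.22). The response was lower at 24 h than at 6 h by a tested difference of -1.21 ± 0.26 at 1500 mg/kg (adjusted p = 0.00092) and -1.24 ± 0.26 at 2000 mg/kg (adjusted p = 0.000429). Between 3 and 6 h the response did not pass the test of a difference at either dose. Over the 5 genes, 3 (Tdo2, Oat and Aadat) had a lower response at 24 h than at 6 h at each high dose, against 5.26% and 6.45% of rows. From 3 h to 24 h, 4 had a lower response at 1500 mg/kg (all but Aass) and 2 at 2000 mg/kg (Oat and Aadat), against 6.63% and 8.58%.

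Aass, which opens lysine breakdown, was higher in most high-dose rats with more overlap between groups. At 3 h vehicle rats ran from -0.18 to 0.87 (median 0.51), rats of 1500 mg/kg from 0.32 to 1.39 (median 1.03) and rats of 2000 mg/kg from 0.60 to 1.37 (median 1.02). The difference was 0.51 ± 0.19 (adjusted p = 0.114) at 1500 and 0.59 ± 0.19 (adjusted p = 0.0403) at 2000 mg/kg. Only the second passed the test, and it ended without any 1 of 8 rats (differences of 0.46 to 0.61), with either dye orientation alone and among rats without the shared blank probes (0.83, adjusted p = 0.0576).

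At 6 h the order of the Aass group means was 150 mg/kg, vehicle, 1500 and 2000 mg/kg, at 0.39, 0.54, 0.92 and 1.17. Levels after 2000 mg/kg ran from 0.81 to 1.40 (median 1.25), with 5 of 6 rats above the highest vehicle rat at 0.87. The difference was 0.63 ± 0.19 (adjusted p = 0.0221) at 2000 and 0.38 ± 0.19 (adjusted p = 0.294) at 1500 mg/kg. The call at 2000 mg/kg ended without any 1 of 5 rats (0.56 to 0.59). At 24 h the differences were 0.32 (95% interval -0.06 to 0.71) and 0.31 (-0.07 to 0.70), and unlike Tdo2, Aass passed no test of a difference between times. Whether the courses of Aass and Tdo2 differ was not tested.

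Oat showed the largest difference of the 5 genes, a fall at 24 h that was not detected at 6 h. At 3 and 6 h its high-dose groups overlapped vehicle throughout, with differences between -0.09 and 0.22, none past the test. At 24 h vehicle rats ran from -0.11 to 0.30 and rats of 150 mg/kg from -0.29 to 0.30. Rats of 1500 mg/kg ran from -2.15 to -0.89 (median -2.03) and rats of 2000 mg/kg from -2.32 to -1.09 (median -1.85). All 12 high-dose rats lay below all 12 rats of vehicle and 150 mg/kg. A group lower than vehicle without overlap was seen in 2.34% of rows at 1500 and 5.87% at 2000 mg/kg. The difference was -1.83 ± 0.19 (adjusted p = 4.86e-11) at 1500 and -1.87 ± 0.19 (adjusted p = 9.14e-12) at 2000 mg/kg, or 3.55-fold and 3.65-fold lower. Oat ranked 33 and 41 of 18978 rows by size of the fall. The 24 h response was lower than the 6 h response by -1.78 ± 0.27 at both doses (adjusted p = 5e-06 and 1.99e-06).

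Oat is known from the cells around the central vein, and 3 of 7 measured genes of a pericentral list fell at 24 h at each high dose, against 11.4% and 12.5% of rows. They were the glutamine synthetase Glul (-1.70 and -1.99), Cyp1a2 (-1.29 and -1.16) and Slc13a3 (-0.99 and -1.11). Cyp2e1, which activates acetaminophen and is pericentral too, was at 0.36 and 0.48 and passed no test. The mean of the 7 genes ran from -0.11 to 0.31 in vehicle rats, from -0.97 to 0.23 at 1500 and from -0.88 to -0.21 at 2000 mg/kg. Of 7 measured periportal genes 4 fell at 1500 mg/kg, and 1 fell and 1 rose at 2000 mg/kg (11.8% of rows rose). The fall of Pck1 (-0.50 at both doses) did not pass without any 1 of 7 rats at 1500 and of 5 at 2000 mg/kg. Cps1 at 1500 mg/kg (-0.54) did not pass without rat 9537 (-0.43). The gene that rose, Cdh1 (0.37), did not pass without rat 5889 (0.30) or rat 5999 (0.31). The mean of 9 general hepatocyte markers at 24 h ran from -0.06 to 0.21 in vehicle rats, from 0.07 to 0.40 at 1500 and from -0.02 to 0.47 at 2000 mg/kg. Of 5 stellate cell markers 3 fell at 24 h at each high dose, with medians of -0.45 and -0.80. Their mean ran from -0.06 to 0.10 in vehicle rats, from -0.88 to -0.17 at 1500 and from -1.03 to -0.44 at 2000 mg/kg, below every vehicle rat. Col1a2 at 1500 mg/kg (-0.45) did not pass without any 1 of 5 rats. Falls were seen before 24 h too. At 3 h 2 fell at each high dose, against 2.44% and 4.09% of rows. At 6 h 1 fell at 1500 and 4 at 2000 mg/kg, against 3.23% and 5.84%. Of those 4 calls Col1a2, Lrat and Rgs5 each ended without at least 1 rat. The marker mean at 6 h ran from 0.00 to 0.32 in vehicle rats and from -0.70 to -0.30 at 2000 mg/kg. Of 5 Kupffer cell markers 2 fell at 24 h at each high dose. Their means at 24 h ran from -0.15 to 0.51 in vehicle rats, -0.43 to 0.01 at 1500 and -0.40 to -0.06 at 2000 mg/kg. Of 3 cholangiocyte markers 0 passed. The part of these cell types in the fall of Oat, and in the falls of Aadat and Abat below, was not tested.

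**Figure D2:**
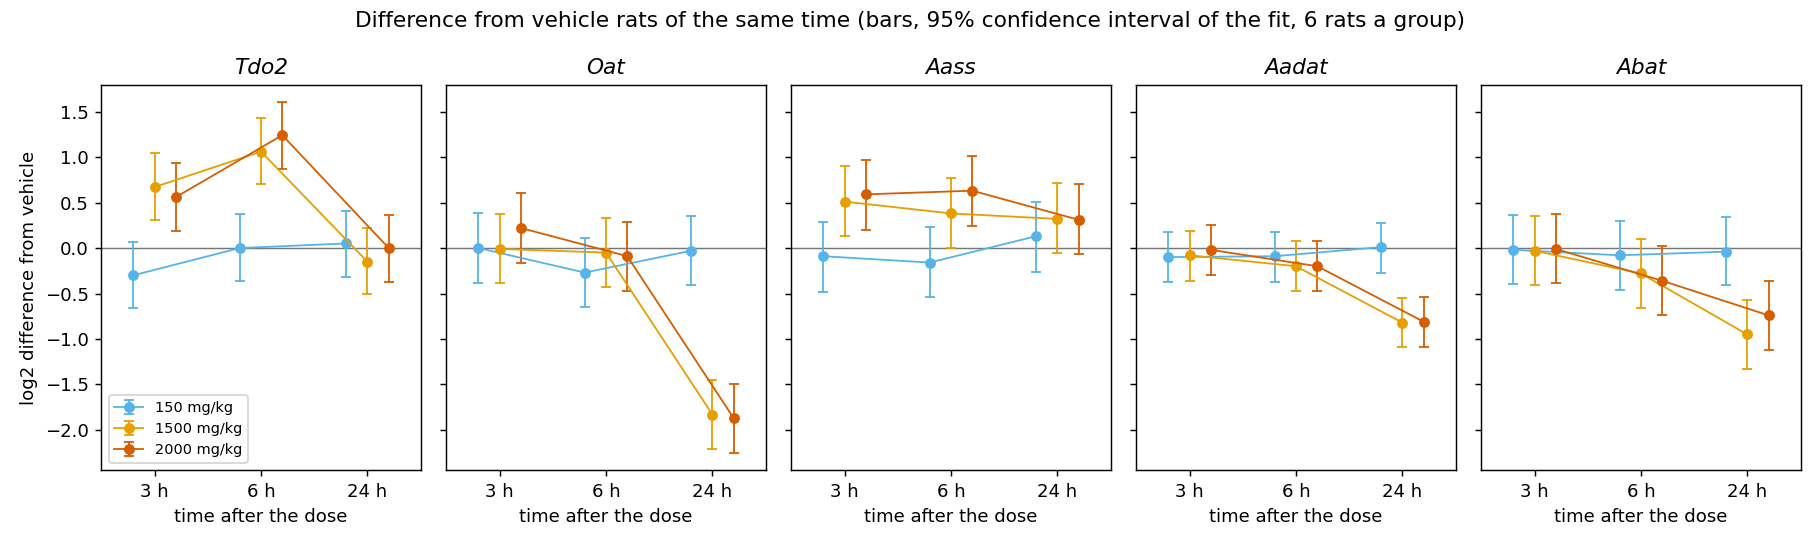
Difference from vehicle rats of the same time (y axis, log2) by time (x axis) for each enzyme and dose; bars are 95% confidence intervals of the fit. The largest Tdo2 differences, 1.06 and 1.24, are at 6 h, where the response was not told apart from that at 3 h. Oat reaches -1.83 and -1.87 at 24 h, and no difference at 150 mg/kg passed the test.

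Aadat, which acts on aminoadipate and kynurenine, fell at 24 h by a smaller amount. Vehicle rats ran from -0.13 to 0.17, rats of 1500 mg/kg from -1.52 to -0.32 (median -0.58) and rats of 2000 mg/kg from -1.61 to -0.35 (median -0.72). Every high-dose rat was below every vehicle rat, as in 2.34% of rows at 1500 and 5.87% at 2000 mg/kg. The spread widened from an SD of 0.11 to 0.54 and 0.44. The difference was -0.82 ± 0.14 (adjusted p = 4.26e-06) at 1500 and -0.81 ± 0.14 (adjusted p = 3.49e-06) at 2000 mg/kg, 1.77-fold and 1.76-fold lower. At 6 h it was -0.20 at both doses and passed no test. The response at 24 h was lower than at 6 h by -0.62 ± 0.19 at each dose (adjusted p = 0.028 and 0.0232). These 2 time differences ended without the 12 rats whose 2 arrays disagree (adjusted p = 0.121 and 0.0868), while the 24 h falls from vehicle held in every alternative that could be fitted.

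Abat fell at 24 h with the widest spread of the 5 genes. Vehicle rats lay close together, from 0.12 to 0.25 with an SD of 0.06. Rats of 1500 mg/kg ran from -1.80 to 0.14 (median -0.57, SD 0.81) and rats of 2000 mg/kg from -1.79 to 0.12 (median -0.45, SD 0.69). At 1500 mg/kg rat 5389, at 0.14, was within the vehicle range. Every rat of 2000 mg/kg was below every vehicle rat, as in 5.87% of rows. The margin was thin, since rat 9540 and the lowest vehicle rat both round to 0.12. The difference was -0.95 ± 0.19 (adjusted p = 9.24e-05) at 1500 and -0.74 ± 0.19 (adjusted p = 0.00218) at 2000 mg/kg. The fit gives all groups 1 spread per gene. With the compared groups fitted alone, the adjusted p was 0.083 and 0.0832. Without rat 5889 the difference at 2000 mg/kg was -0.49 (adjusted p = 0.0318).

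At 6 h Abat already stood lower in the high-dose rats without passing the test. Vehicle rats lay between 0.08 and 0.30 and rats of 2000 mg/kg between -0.32 and -0.06, all below all vehicle rats, as in 5.06% of rows. The difference was -0.36 ± 0.19 (adjusted p = 0.256). It passed with the 2 groups fitted alone (adjusted p = 0.0018) and with quality weights (adjusted p = 0.00293). The response to 1500 mg/kg was lower at 24 h than at 3 h by -0.92 ± 0.27 (adjusted p = 0.0141), and the same comparison at 2000 mg/kg gave -0.72 (adjusted p = 0.0546).

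The same rats held the lowest Aadat and Abat. Rat 7075 of 1500 mg/kg had -1.52 for Aadat and -1.71 for Abat, rat 9537 had -1.47 and -1.80, and rat 5889 of 2000 mg/kg had -1.61 and -1.79. In the other 9 high-dose rats Aadat lay between -0.94 and -0.32 and Abat between -0.83 and 0.14. The mean of 5 neutrophil and monocyte markers, 2.67, 3.08 and 3.18 in those 3 rats, was between -0.39 and 2.32 in the other 9. In vehicle rats it ran from -0.59 to 0.02. Of these markers 4 of 5 rose at 1500 mg/kg and 3 of 5 at 2000 mg/kg, against 10.2% and 11.8% of rows that rose. Among them were the monocyte attractant Ccl2 (2.52 and 2.61) and S100a9 (2.20 and 1.64). The highest Ccl2 values were 6.13 at 1500 and 6.10 at 2000 mg/kg, so the marker mean leans on this 1 gene in some rats. Ccl2 at 1500 mg/kg did not pass without rat 7075 (1.95) or rat 9537 (1.78), nor S100a9 at 2000 mg/kg without rat 5889 (0.92) or rat 8089 (1.37). S100a8 at 1500 mg/kg (0.96) did not pass without any 1 of 5 rats. Lcn2 did not pass without any 1 of 5 rats at 1500 (1.10) and any 1 of 4 at 2000 mg/kg (1.09). Oat was -2.11 in rat 9537 and -2.03 in rat 5889, and slightly higher than these in rat 7075. The lowest Oat, -2.32, was in rat 9388 with a marker mean of -0.18, and the highest, -0.89, -1.09 and -1.41, in rats 5389, 2197 and 0504 with marker means of -0.08, 0.03 and -0.07. The part of these cells in the falls was not tested.

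**Figure D3:**
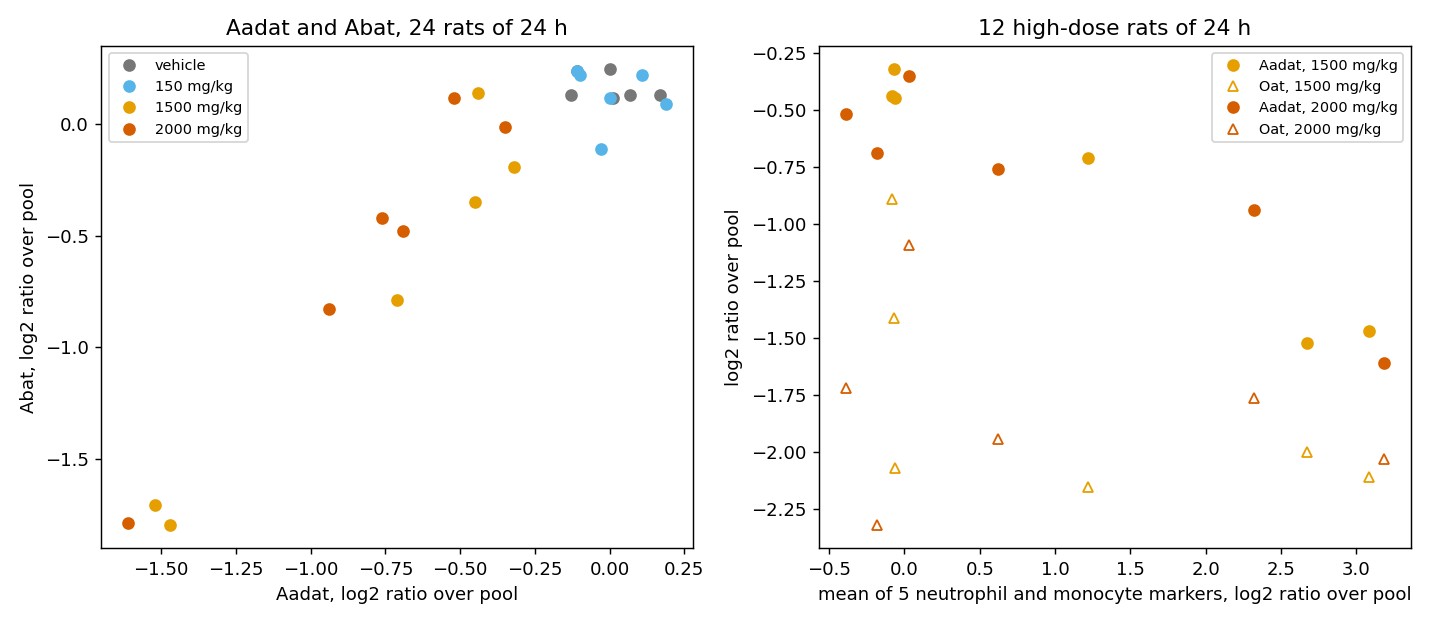
Left, Abat (y axis) against Aadat (x axis) as log2 ratios over the pool in 24 rats of 24 h, coloured by dose; right, Aadat (filled circles) and Oat (open triangles) against the mean of 5 neutrophil and monocyte markers in the 12 high-dose rats. Rats 7075, 9537 and 5889 lie apart at the low end of Aadat and Abat, with marker means of 2.67 to 3.18.

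Relations between rats were measured on deviations from group means over 72 rats, for the 10 pairs of genes, with two-sided permutation tests within groups adjusted over the pairs. Both genes of a pair are read from the same arrays, so array-wide errors enter both. Aadat and Abat had a Pearson r of 0.791 (permutation p = 9e-05, adjusted p = 0.00045) and a Spearman rho of 0.366 (p = 0.00801, adjusted p = 0.0267). Without the 2 rats farthest in Aadat r was 0.678. The relation was found in the high-dose rats alone (r = 0.889, 36 rats) and at 24 h alone (0.932, 24 rats), and not in vehicle and 150 mg/kg rats (0.138) or at 3 h (0.0392), so it rests on high-dose rats of 24 h, where 3 rats stand apart. Tdo2 and Aass had r = 0.516 (permutation p = 3e-05, adjusted p = 0.0003), rho = 0.48 (p = 0.0001, adjusted p = 0.001) and r = 0.454 without the 2 farthest rats. This pair had r = 0.634 in vehicle and 150 mg/kg rats and 0.419 in high-dose rats (adjusted p = 0.0019 and 0.0751). Oat and Abat had r = 0.44 (permutation p = 0.00685, adjusted p = 0.0228) and rho = 0.377 (p = 0.00371, adjusted p = 0.0185), with r = 0.337 without the 2 farthest rats, and passed in no time alone. The other 7 pairs did not pass.

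The 2000 and 1500 mg/kg groups were not told apart for any of the 5 genes at any time, where 2 of 18978 rows passed at 3 h (0.0105%), 1 at 6 h (0.00527%) and 0 at 24 h. The difference of 2000 minus 1500 mg/kg was 0.17 (95% interval -0.19 to 0.54) for Tdo2 at 6 h. At 24 h it was -0.04 (-0.42 to 0.34) for Oat, 0.01 (-0.27 to 0.28) for Aadat and 0.22 (-0.16 to 0.59) for Abat. Smaller differences between the high doses are not excluded.

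The genes next to the 5 enzymes in their pathways came from 11 lists with 84 measured genes besides the 5. At 24 h 42 of 84 fell and 3 rose at 1500 mg/kg, and 30 fell and 5 rose at 2000 mg/kg, against 11.4% and 12.5% of rows that fell and 10.2% and 11.8% that rose. The median difference of the 84 was -0.41 and -0.30, against -0.01 over all rows. At 3 h 4 rose and 2 fell at 1500, and 11 rose and 2 fell at 2000 mg/kg. Of all rows 3.39% and 4.92% rose then and 2.44% and 4.09% fell, so the counts at 1500 mg/kg lay near these shares. At 6 h 7 rose and 4 fell at 1500, and 11 rose and 7 fell at 2000 mg/kg. Of all rows 3.65% and 5.31% rose at 6 h and 3.23% and 5.84% fell. With the compared groups fitted alone, 11 genes were called at 24 h and 1500 mg/kg and 23 at 2000 mg/kg, in place of 45 and 35. Of the 45 calls 12 ended without rat 9537 and 10 without rat 7075, and of the 35 calls 12 ended without rat 5889, the rats with the lowest Aadat and Abat.

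In tryptophan breakdown, 6 of 8 measured genes fell at 24 h at 1500 and 4 of 8 at 2000 mg/kg, against 11.4% and 12.5% of all rows. None rose at any time. Kynureninase (Kynu), which splits kynurenines, had the largest fall of the list, -2.11 and -1.73. The formamidase Afmid, directly after Tdo2, fell by 0.62 and by 0.47 on the log2 scale. Kynurenine monooxygenase (Kmo) fell at 6 h, by 0.76 and by 0.93, when Tdo2 had its largest differences from vehicle. At 24 h it fell at 1500 mg/kg alone (-0.70, against -0.48 at 2000 mg/kg). Haao, which makes the precursor of quinolinate, fell at 6 h (-0.40 and -0.53) and was at -0.09 and 0.20 at 24 h. Qprt of NAD synthesis fell at 24 h (-0.82 and -0.48), and Acmsd, which diverts the pathway from NAD, fell at 1500 mg/kg (-0.73) with -0.60 at 2000 mg/kg. Several of these calls rested on single rats. At 24 h and 2000 mg/kg, Afmid was -0.27 and Qprt -0.30 without rat 5889, and neither passed. They did not pass either without rat 7393 for Afmid (-0.41) or rat 8089 for Qprt (-0.43). Kmo at 24 h and 1500 mg/kg did not pass without rat 7075 (-0.46) or rat 9537 (-0.43). The calls at 1500 mg/kg ended without any 1 of 7 rats for Acmsd at 24 h, and at 6 h without any 1 of 3 for Kmo and of 9 for Haao.

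In lysine breakdown, 3 of 6 measured genes fell at 24 h at each high dose, against 11.4% and 12.5% of all rows, and 0 passed at 3 or 6 h. Dhtkd1, which acts on the oxoadipate that Aadat makes, fell by 1.11 and by 1.10. Glutaryl-CoA dehydrogenase (Gcdh) fell by 0.54 and by 0.51, and Aldh7a1, between Aass and Aadat, was at -0.32 and -0.21 without passing. The 1 gene of the list that rose, Dlst at 2000 mg/kg (0.43), lay outside the rule for naming genes and was picked after its value was seen.

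Around ornithine, the genes went both ways at 24 h, with 2 of 8 risen and 3 of 8 fallen at each high dose. Of all rows 10.2% and 11.8% rose then, and 11.4% and 12.5% fell. The arginase Arg1, which makes ornithine, rose at 6 h (0.40 and 0.52) and 24 h (0.49 and 0.60). Ornithine decarboxylase (Odc1), which takes ornithine to polyamines, rose at 24 h by 0.92 and 0.94. Proline dehydrogenase (Prodh) fell at both high doses, by 0.73 on the log2 scale at 2000 mg/kg (adjusted p = 0.0084) and at 1500 mg/kg with an adjusted p of 0.000294. Hydroxyproline dehydrogenase (Prodh2) fell too (-0.58 and -0.38), and Aldh4a1, which oxidises the glutamate semialdehyde that Oat makes, was at -0.58 and -0.45 without passing. At 2000 mg/kg Prodh (-0.54) and Prodh2 (-0.25) did not pass without rat 5889, nor Prodh2 without any 1 of 3 further rats. Arg1 at 6 h and 1500 mg/kg did not pass without any 1 of 3 rats.

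In GABA and beta-alanine breakdown, 5 of 8 measured genes fell at 24 h at each high dose, against 11.4% and 12.5% of all rows. Aldh5a1, which takes the product of Abat to succinate, was at -0.02 and -0.03 at 24 h and rose at 3 h at 2000 mg/kg (0.38). That call ended without rat 2698 (0.26), rat 7365 (0.35) or rat 7763 (0.34). Aldh6a1 of beta-alanine and valine breakdown fell at 24 h (-0.73 and -0.75), which did not pass without rat 7075 (-0.65) or rat 9537 (-0.60) at 1500 mg/kg and without rat 5889 (-0.63) at 2000 mg/kg. Its difference of 0.76 at 3 h and 2000 mg/kg rested on vehicle rat 3420, without which it was 0.37 (adjusted p = 0.248).

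**Figure D4:**
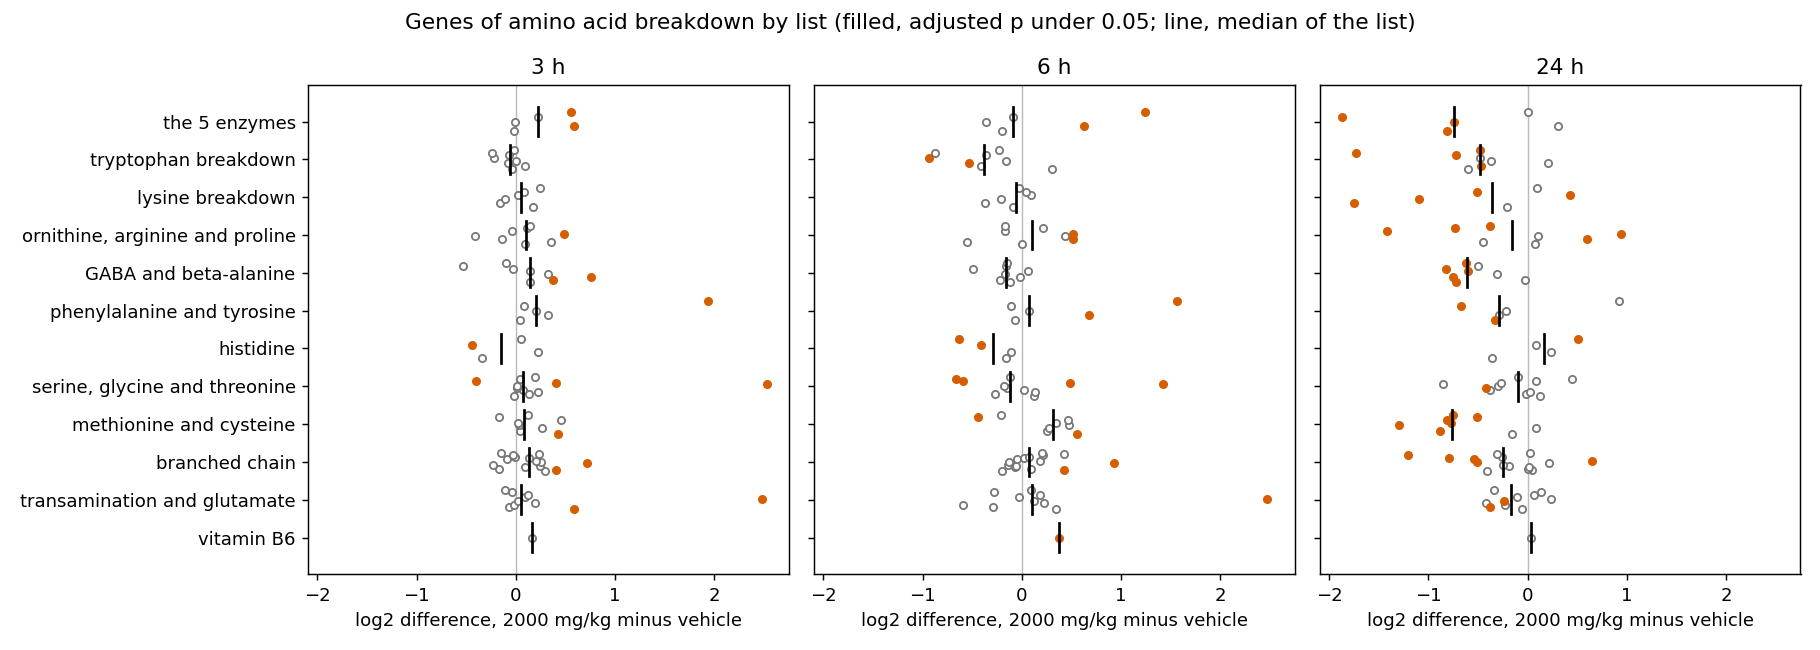
Log2 difference of 2000 mg/kg minus vehicle (x axis) for genes of the 11 lists and the 5 enzymes (y axis) at 3, 6 and 24 h; filled points passed limma's test and black lines are list medians. The early panels hold few called genes, with rises reaching 2.53 for Sds at 3 h, and at 24 h 30 of the 84 genes besides the 5 enzymes are called lower.

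Of the remaining lists, methionine and cysteine had 6 of 8 fallen at 24 h at each high dose, among them cysteine dioxygenase Cdo1 (-1.41 and -1.30) and sulfite oxidase Suox (-0.86 and -0.75). Of all rows 11.4% fell at 24 h at 1500 and 12.5% at 2000 mg/kg. Among 15 branched chain genes 8 fell at 1500 and 4 at 2000 mg/kg, with Mcee at -1.18 and -1.21 and Ivd at -0.78 and -0.79, while Hibch rose at 2000 mg/kg (0.65). Of 5 phenylalanine and tyrosine genes 4 and 2 fell, among them Qdpr (-0.73 and -0.67) and Fah (-0.43 and -0.33). Of 11 serine, glycine and threonine genes 3 and 1 fell, with Gcsh at -0.50 and -0.42, and Gldc and Dmgdh passed no test. The count of 1 of 11 at 2000 mg/kg lay near the share of all rows. Of 10 transamination genes 4 and 2 fell, among them Glud1 (-0.36 and -0.24) and Asrgl1 (-0.47 and -0.38). Here the count of 2 of 10 at 2000 mg/kg was not far above that share. Of 4 histidine genes 0 fell at 24 h, and Hdc, which makes histamine, rose (0.63 and 0.51). Amdhd1, the other histidine gene named by the rule, passed no test. At 2000 mg/kg the histidase Hal fell at 3 h (-0.44) and 6 h (-0.41), and Hdc fell at 6 h (-0.63). Hal lay outside the rule for naming genes and was picked after its values were seen. Without rat 5889 the 24 h values at 2000 mg/kg of Fah (-0.22), Gcsh (-0.29) and Asrgl1 (-0.24, and likewise without any 1 of 4 further rats) did not pass, nor did Glud1 without rat 8089 (-0.20). Asrgl1 at 1500 mg/kg did not pass without rat 7075 (-0.34) or rat 9537 (-0.32). Hal did not pass at 3 h without rat 7763 (-0.38) or at 6 h without any 1 of 5 rats. The vitamin B6 kinase Pdxk rose at 6 h (0.35 and 0.38), with calls that ended without any 1 of 6 rats at 1500 and without rat 1550 (0.32) at 2000 mg/kg. The early rises of the lists at 1500 mg/kg and 3 h, picked after their values were seen, were the serine dehydratase Sds (2.22), the aspartate aminotransferase Got1 (2.19), the tyrosine aminotransferase Tat (1.85) and Dbt (0.66), set beside 0.67 for Tdo2.

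By correlation over the 12 group means among 9652 other named genes, a description with no test, the gene most like Tdo2 was Slc16a10 (r = 0.981), a transporter of aromatic amino acids. It was 1.25, 2.10 and 0.03 above vehicle at 3, 6 and 24 h and 2000 mg/kg. Tgoln2 and Edem1 followed. Nearest to Aass were Paxip1 (0.987), the selenophosphate synthetase Sephs2 and the glucocorticoid-responsive Fkbp5 (0.96). Nearest to Oat were Myl9 (0.994), Wdr62 and Disp1, to Aadat Echdc2 (0.994), Ddc and Bphl, and to Abat Faah (0.993), Pdk2 and Kynu. The group means of the 5 genes themselves had r = 0.975 for Oat with Aadat, 0.972 for Aadat with Abat and 0.822 for Tdo2 with Aass. These points share vehicle groups and pools.

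The 2 arrays of a rat gave nearly the same value for each gene once turned to the same direction. Their correlation over 72 rats ran from 0.942 for Aass to 0.995 for Oat, and the mean difference between orientations from -0.15 to 0.15. No value was blank or exactly 0 for these 5 probes on any array.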

How the data were processed

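Liver RNA of 72 rats was measured on 2-colour arrays, 2 per rat. The authors deposited processed array values, taken here as log10 ratios (Cy5 to Cy3), and a key that pairs rats with doses. The sources used here do not give the log base, the direction, or how background and dyes were corrected. Array medians lay between 0 and 0.000258. A wrong base would scale every difference, and a dye effect that varied between arrays would widen the spread between rats.

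The values were multiplied by 3.322 to give log2 ratios, the sign was turned where the rat was labelled with Cy3, and each rat's arrays were averaged. Over all probes the arrays of a rat, as deposited and less the mean dye effect, correlated negatively in 63 of 72 rats (median -0.421). In 12 rats the correlation was above -0.1. Of 22075 probes, 12750 had 1 symbol, 5 several and 9320 none; probes of 1 symbol were averaged. Symbols came from the platform annotation, and 12720 probes were found by Entrez ID in the GRCr8 gene table. On 49 arrays 500 probes were blank together (23 rats on both arrays, 3 on 1). The number of rats limits the precision.

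All adjusted p-values of gene differences are from limma 3.58.1 (R 4.3.3), a fit of 12 group means with contrasts against vehicle, between the high doses and between times, Benjamini-Hochberg adjusted over 18978 rows at 0.05. Relations used 100000 permutations within groups (SciPy 1.17.1, NumPy 2.4.6, pandas 2.3.3, Python 3.11.15). On simulated data for 2000 mg/kg at 24 h, over 18978 rows, the fit recovered 48%, 88% and 100% of rows given log2 changes of 0.5, 1 and 2, with 10 false of 167 calls. The simulated rows were independent, with normal noise of the same spread in all groups. At 24 h the real spread was unequal, as for Abat (SD 0.06 in vehicle rats, 0.69 at 2000 mg/kg). The simulation therefore cannot give the share of false calls in the real 24 h data.

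The 5 genes, the lists and the markers were chosen with earlier results of these data known. Named neighbours were those next to a member by role and, in each other list, the 2 genes with the smallest p at 24 h and 2000 mg/kg (3 in lists of over 10 measured genes). Alternatives were array centring, each dye alone, probes with a value on all arrays, 1 row per probe, exact zeros as missing, single arrays with a term for the dye and each rat as random block, fits of the compared groups alone, quality weights, the shared blanks as a covariate, leaving out the 12 rats above, and each rat left out in turn. Splits by the shared blanks were added after seeing the data. Proteins and a promoter of Abat were not used here.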

Additional observations from a re-analysis of the deposited data

Results flagged for a closer look

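In 5 of 60 sets of 6 values (5 genes in each of 12 groups, over the same 72 rats and so not independent) a single rat lay far from the rest, where chance flags about 1 in 20 sets. Tdo2 was at -0.77 in rat 0613 of 150 mg/kg at 3 h (next lowest -0.05), at 0.18 in rat 7365 of 2000 mg/kg at 3 h (next 0.82) and at 0.49 in rat 7334 of 1500 mg/kg at 6 h (next 1.48). Oat was at -1.02 in rat 9754 of 150 mg/kg at 6 h (next -0.22), and Aadat at -0.39 in rat 5886 of 2000 mg/kg at 6 h (next -0.16).

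The response differed between times in 12 of 45 limma tests over the 5 genes, always lower at 24 h. Of all rows, 5.26% (from 6 h at 1500 mg/kg) to 8.58% (from 3 h at 2000 mg/kg) had a lower response at 24 h. At 150 mg/kg 0 rows passed a test between times. For Tdo2 the response to 1500 mg/kg was lower at 24 h by -1.21 than at 6 h and by -0.82 than at 3 h (adjusted p = 0.0263), and that to 2000 mg/kg by -1.24 than at 6 h. For Oat the differences from 6 h and 3 h were -1.78 and -1.81 at 1500 mg/kg, and -1.78 and -2.09 at 2000 mg/kg. For Aadat they were -0.62 and -0.74, and -0.62 and -0.79. For Abat the response to 1500 mg/kg was lower at 24 h than at 3 h by -0.92.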

How the results depend on the processing

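Of 124 results, 35 changed their call or count under at least 1 alternative. Of these 1, the relation of Aass with Abat, passed with the opposite sign, in 2 settings. The falls of Oat and Aadat from vehicle at 24 h and the rises of Tdo2 at 6 h kept their calls in all alternatives that could be fitted; the cause of the changes below was not tested.

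Tdo2 at 3 h and 2000 mg/kg lost its call with Cy3 alone (0.54), the compared groups alone (0.56), the blank covariate (0.50), without the 12 disagreeing rats (0.67) and in rats without the shared blanks (0.45), where it was also lost at 1500 mg/kg (0.77). Aass at 3 h and 2000 mg/kg lost it with Cy5 (0.63) or Cy3 alone (0.55), the compared groups alone (0.59), the covariate (0.56), without disagreeing rats (0.55) and without blanks (0.83). Aass at 6 h and 2000 mg/kg lost it without disagreeing rats (0.45), without blanks (0.61) and in rats with blanks (0.64). Abat at 24 h lost it with the compared groups alone (-0.95 and -0.74), without blanks at 1500 (-0.77) and with blanks at 2000 mg/kg (-0.52).

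Calls were gained with the rat as a random block for Aass at 3 h and 1500 mg/kg (0.51) and Abat at 6 h and 2000 mg/kg (-0.36, as with the compared groups alone). With quality weights they were gained for Aass at 1500 mg/kg at 3 h (0.56) and 6 h (0.49) and for Abat at 6 h and 2000 mg/kg (-0.40). The random block fit used the same correlation between the arrays of a rat, 0.23, for every gene. For the enzymes followed here, that correlation over all rats, group differences included, ran from 0.942 (Aass) to 0.995 (Oat). The random block fit may therefore understate the error for these genes. This limit applies to its gained calls here and to its time differences and counts below.

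Of the time differences, rats without blanks lost Tdo2 (-1.35 and -0.97), Oat from 6 h (-1.29), Aadat (-0.64 and -0.65) and Abat from 3 h (-0.78) at 1500 mg/kg, and Aadat (-0.75 and -0.82) at 2000 mg/kg. Leaving out disagreeing rats lost Aadat from 6 h (-0.59) and Abat from 3 h (-0.92) at 1500 mg/kg and Aadat (-0.63 and -0.73) at 2000 mg/kg. Cy3 alone lost Tdo2 from 3 h (-0.78), and rats with blanks Aadat from 6 h (-0.53). The random block gained Tdo2 between 3 and 6 h (0.68) and from 3 h (-0.57) at 2000 mg/kg, and Abat from 6 h at 1500 (-0.67) and from 3 h at 2000 mg/kg (-0.72). Quality weights gained Tdo2 from 3 h at 2000 (-0.82) and Abat from 6 h at 1500 mg/kg (-0.55), and the covariate Abat from 3 h at 2000 mg/kg (-0.75).

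Counts of called breakdown genes at 3 h and 1500 mg/kg went from 6 to 11 with the random block, 11 with the compared groups alone and 10 with weights. At 3 h and 2000 mg/kg, 13 became 8 with Cy3 alone, 3 without disagreeing rats and 4 without blanks. At 6 h and 1500 mg/kg, 11 became 22 (block), 29 (weights), 6 (disagreeing rats out) and 2 (without blanks). At 6 h and 2000 mg/kg, 18 became 30 (block), 33 (weights), 4 (without blanks) and 6 (with blanks). At 24 h, 45 became 11 (compared groups alone) and 9 (without blanks), and 35 became 23, 22 and 15 (with blanks).

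Leaving out single rats, the lowest and highest values were 0.55 and 0.74 for Tdo2 at 3 h and 1500 mg/kg, and 0.44 and 0.69 at 2000 mg/kg (lost without rats 1009, 1658, 5557, 2730, 4176, 7515, 7763 or 8596). They were 0.39 and 0.64 for Aass at 3 h and 1500 mg/kg (gained without rat 0186) and 0.46 and 0.68 at 2000 mg/kg (lost without 1009, 1658, 5557, 2730, 4176, 7365, 7515 or 8596). At 6 h and 2000 mg/kg they were 0.56 and 0.70 (lost without 1871, 8897, 5886, 7743 or 9100). For Tdo2 at 24 h against 3 h and 1500 mg/kg they were -0.90 and -0.70 (lost without 1009, 5557, 2483 or 7075). For Aadat at 24 h against 6 h they were -0.72 and -0.48 at 1500 mg/kg (lost without 3942, 4550, 7334, 7075 or 9537) and -0.71 and -0.46 at 2000 mg/kg (lost without 5889). For Abat at 1500 mg/kg they were -0.86 and -0.47 against 6 h (gained without 0504 or 5389) and -1.11 and -0.72 against 3 h (lost without 7075 or 9537), and at 2000 mg/kg -0.86 and -0.48 against 3 h (gained without 1658, 2197 or 9540). Breakdown genes called ranged from 7 to 13 at 3 h and 2000 mg/kg (7 without 7365) and from 6 to 18 at 6 h and 1500 mg/kg (18 without 7334; 6 or 7 without 8897, 1376, 2123 or 8918).

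Of the relations, Tdo2 with Aass no longer passed in high-dose rats (0.419), at 3 h (0.439) or at 24 h (0.524) alone. Oat with Abat no longer passed in high-dose rats (0.465), at 3, 6 or 24 h (0.327, 0.416, 0.58) or without blanks (0.53), nor Aadat with Abat in vehicle and 150 mg/kg rats (0.138), at 3 h (0.0392) or at 6 h (0.28). Passing in vehicle and 150 mg/kg rats alone were Tdo2 with Aadat (0.391) and Abat (0.504) and Oat with Aadat (0.408, and 0.424 without disagreeing rats), and at 6 h Oat with Aass (0.692). Aass with Abat, at -0.137 over all rats, was positive in vehicle and 150 mg/kg rats (0.526) and at 3 h (0.737).

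No paired analysis was possible because the rat numbers are unique to a group.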
